A study of Mus musculus with 18 samples.

Results

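The Lachnospiraceae_NK4A136_group, a genus-level lineage of the Clostridia family Lachnospiraceae, was described feature by feature in mouse stool. Its members were all features that the deposited taxonomy places in the family Lachnospiraceae and in this genus, and 31 of the 419 sequence features of the table met that rule. A sequence feature is a distinct 16S rRNA gene sequence, written here as F- and the first characters of its deposited identifier. Stool came from 18 mice of the N2 generation of a cross between the inbred strains C57BL/6 and C3H/HeJ, sampled after 6 weeks of peanut sensitization, which all mice received. By label, 6 mice were susceptible and 12 were resistant to oral anaphylaxis, the allergic reaction to swallowed allergen. The ages of the mice and an unsensitized group were not part of the data used here, and N2 mice differ from one another genetically.

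The genus is named after a cultured Lachnospiraceae strain. Lachnospiraceae are anaerobic gut bacteria that ferment plant fibre, and many of them make short-chain fatty acids such as butyrate, a fuel of the colon lining. The NK4A136 group is a regular and often abundant part of mouse gut communities. Many bacteria carry several copies of the 16S rRNA gene whose sequences can differ slightly, so a feature is not the same thing as a strain, and 1 strain can give more than 1 feature.

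Libraries held 673 to 3905 counts per mouse, of which 54 to 1682 belonged to the genus. A single count was therefore worth between 0.0256% and 0.149% of a mouse's counts. Each mouse was 1 library, and 2 libraries, those of resistant mice 3 and 5, held under 1500 counts. Intervals of shares and limits on unseen features cover counting error only. They take reads as separate, although amplified reads that carry no molecular identifier need not come from separate molecules. Intervals of differences between the groups come from permutation over mice. Percentages are relative: where 1 feature takes more of the counts, the others take less.

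The 31 features summed to 11838 counts, 27.4% of the 43267 counts in the table. Among susceptible mice the genus ran from 7.24% of counts in mouse 4 to 62.3% in mouse 2, with a median of 22.1%. Among resistant mice it ran from 2.01% in mouse 9 to 42.1% in mouse 6, with a median of 23.1%. The 2 highest values belonged to susceptible mice 1 and 2 and the 3 lowest to resistant mice 9 and 10 and susceptible mouse 4, and the groups overlapped over most of their range. The genus held 18.4% to 83.6% of all Lachnospiraceae counts of a mouse. On the scale of log2(percent + 0.01), susceptible mice were 0.47 higher. The 95% interval of that difference was -0.85 to 1.82, and it did not pass a two-sided exact permutation test (p = 0.474, and 0.474 when adjusted over 4 tests of the labels). In edgeR's quasi-likelihood test over 26 genus-level taxa the genus had a log2 fold change of 0.81 ± 0.62 (SE), susceptible over resistant (adjusted p = 0.569), and 0% of these taxa were called. That sign turned to -0.13 with DESeq2 size factors, which also moved the median log2 fold change of all genera from 0.53 to -0.23. It was also below 0 when susceptible mouse 2 (-0.20) or resistant mouse 5 (-0.04), 7 (-0.01) or 9 (-0.08) was left out, or both small libraries (-0.01). With 8 other taxa of the family tested, 0 were called higher and 0 lower in edgeR, and 7 were fitted above 0, as the genus was. Of these 8, 1 had an unadjusted edgeR p under 0.05, against 2 of all 26 taxa.

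**Figure D1:**
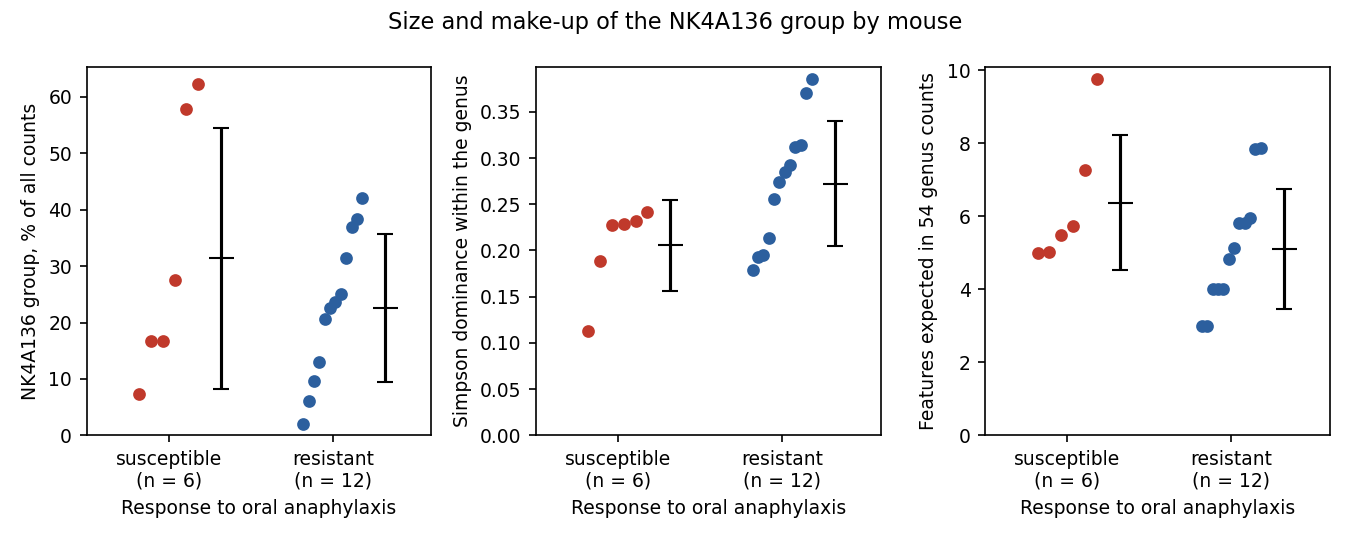
Each point is 1 mouse (red susceptible, n = 6; blue resistant, n = 12), with the mean and SD in black. The left axis gives the genus as a percentage of all counts, the middle axis the chance that 2 genus reads of a mouse are the same feature (Simpson dominance), and the right axis the number of features expected in 54 genus counts. All 3 measures overlap between the groups.

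Most of the genus sat in few features. The 7 most abundant held 83.0% of its counts. At the other end, 17 of the 31 features (54.8%) were found in 1 mouse only and together held 3.87% of the genus. Among all 419 features that share was 58.2%. No member was found in all 18 mice: F-5250d8 and F-d0393c, the most widespread, were each found in 13. A mouse carried between 3 and 11 members, and its largest feature held between 14.3% and 49.5% of its genus counts.

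The largest feature was not the same from mouse to mouse, and 7 different features held that place. F-5250d8 was the largest in 7 mice, F-3f0846 in 4, F-57f745 and F-0d3510 in 2 each, and F-5d432e, F-165b40 and F-7f9d17 in 1 each. Some of these places were near ties. In resistant mouse 1, F-5d432e had 289 counts, F-0d3510 288 and F-57f745 287. In susceptible mouse 3, F-0d3510 had 131 against 129 for F-5d432e, and in susceptible mouse 1, F-7f9d17 had 199 against 187 for F-5d432e. Of the 12 members with a species-level entry in the taxonomy, none had a named cultured species: the entries read Lachnospiraceae, uncultured_bacterium, Clostridiales_bacterium or unidentified. F-3f0846 and F-5d432e carried the same entry, Lachnospiraceae, yet no mouse held both.

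**Figure D2:**
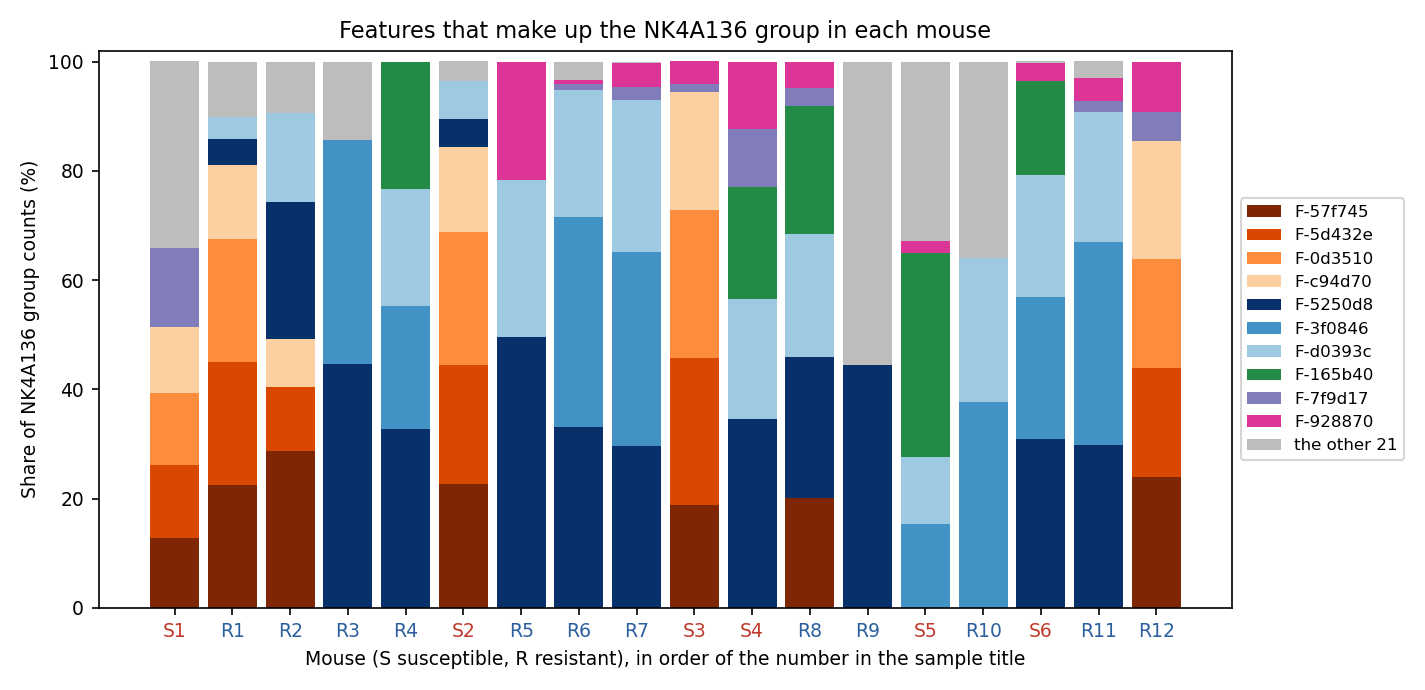
Each bar is 1 mouse, in the order of the number in its sample title, and shows what share of its NK4A136 group counts (%) each feature held. Orange shades mark 4 features that occur together, blue shades 3 others, and the other colours the members of neither set. Bars are mainly orange or mainly blue in most mice, and members of neither set hold the most in susceptible mouse 5, at 72.2%.

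Of these features, 4 formed a set that came and went together: F-57f745, F-5d432e, F-0d3510 and F-c94d70. They were grouped after their values were seen, so what follows describes them and no test was made of the grouping. The set was found in 7 mice, namely susceptible mice 1, 2 and 3 and resistant mice 1, 2, 8 and 12, and all 4 features were present in 5 of them. In susceptible mice it summed to 29.7%, 52.4% and 26% of counts in mice 1, 2 and 3 and was not found in mice 4, 5 and 6. In resistant mice it summed to 31.1% in mouse 1, 15.5% in mouse 2, 17.6% in mouse 12 and 2.63% in mouse 8, where F-57f745 alone was found. Carriers held the set at high levels, with the exception of resistant mouse 8, and the remaining 11 mice had no count of it.

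Within a carrier, F-5d432e and F-0d3510 stood at nearly the same level, and the other members of the set stood near them in some mice and apart in others. They had 187 and 184 counts in susceptible mouse 1 and 366 and 408 in susceptible mouse 2. They had 129 and 131 in susceptible mouse 3, 289 and 288 in resistant mouse 1, and 110 and 109 in resistant mouse 12. The ratio of F-0d3510 to F-5d432e thus ran from 0.984 to 1.11 over 5 mice whose levels differed widely, and in 5 of 5 the 95% Wilson interval of F-0d3510's share of the pair held 50%. The exception was resistant mouse 2, with 122 counts of F-5d432e and none of F-0d3510. In that mouse F-57f745 also stood apart from its partners, with 301 counts, a ratio of 2.47 to F-5d432e against 0.705 to 1.19 in the other 5 carriers of both. F-c94d70 was lower than F-5d432e in 5 of 6 mice, with ratios from 0.592 to 1.07. The interval of the share held 50% in 4 of 6 mice for F-57f745 with F-5d432e, in 3 of 6 for F-c94d70 with F-5d432e, and in 4 of 5 for F-57f745 with F-0d3510. Across the 5 mice with all 4 features, the most abundant of the set exceeded the least abundant by 1.11-fold to 1.69-fold.

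As a measure of likeness, Bray-Curtis dissimilarity of percentages across the 18 mice is 0 for features with the same levels in every mouse and 1 for features that share no mouse. Of 2346 pairs among the 69 features found in at least 5 mice, F-5d432e and F-0d3510 were the most alike, at 0.0628, and the lowest value of a pair that was not of this genus was 0.0712. All 6 pairs within the set lay between 0.0628 and 0.212, and the median of all pairs was 0.819. Pairs of members were 66 of the 2346 pairs, and they were 5 of the 10 most alike and 8 of the 14 at 0.25 or less. The median over pairs of members was 0.872, above that of all pairs. These are descriptions, since all pairs share the same libraries.

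**Figure D3:**
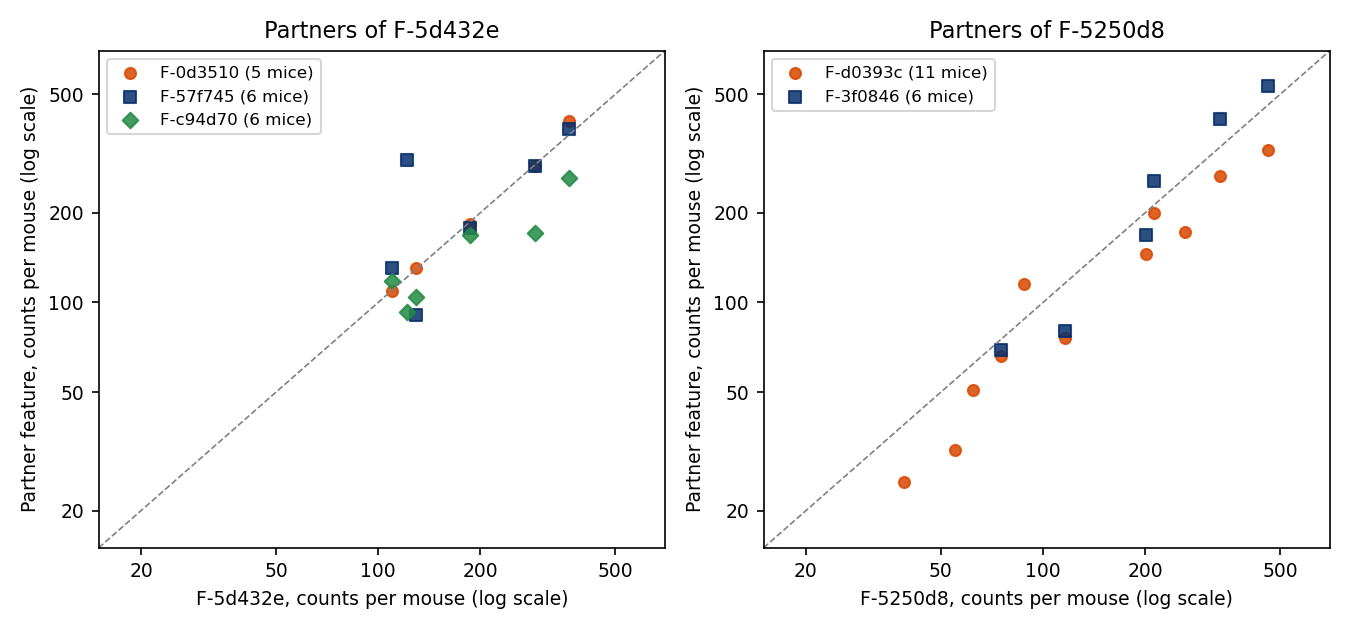
Counts of partner features in the same mouse, 1 point per mouse carrying both, on log axes with the line of equality dashed. On the left, F-0d3510 lies on or near the line in 5 mice and F-57f745 leaves it in resistant mouse 2 (ratio 2.47). On the right, F-d0393c lies below F-5250d8 in 10 of 11 mice (ratios 0.582 to 1.31), and F-3f0846 lies on both sides of the line.

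Another set of 3 features, F-5250d8, F-3f0846 and F-d0393c, made up 43.6% of all genus counts, against 39.4% for the set of 4. They too were grouped after their values were seen, and no test was made of the grouping. All pairs among the 3 were less alike than any pair within the set of 4. F-5250d8 stood at 0.277 from F-3f0846 and was closer to F-d0393c, while F-3f0846 and F-d0393c stood at 0.368. F-d0393c was closer to F-f79da2, a feature outside the genus, at 0.312 than to F-3f0846. At least 1 of the 3 was found in 15 mice, all 3 in 5 mice, 2 in 9 and F-5250d8 alone in resistant mouse 9. Their sum was not found in susceptible mice 1 and 3 and was 7.52%, 4.10%, 4.65% and 13.2% of counts in susceptible mice 2, 4, 5 and 6. In resistant mice it ran from not found in mouse 12 to 39.9% in mouse 6, with a median of 10.3%. The level was above that of the highest susceptible mouse in resistant mice 3, 4, 6, 7 and 11, and the other 7 resistant mice lay within the range of the susceptible ones.

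Proportions among the 3 features varied between mice. F-d0393c was below F-5250d8 in 10 of 11 mice with both, and its ratio to F-5250d8 ran from 0.582 in resistant mouse 5 to 1.31 in susceptible mouse 2, with a median of 0.721. F-3f0846 stood at 0.690 to 1.24 times F-5250d8 in 6 mice with both, and was highest in resistant mice 6 and 11, with 531 and 412 counts. Susceptible mouse 5 and resistant mouse 10 had F-3f0846 and F-d0393c and no count of F-5250d8.

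F-3f0846 and the set of 4 never occurred in the same mouse. F-3f0846 was found in 8 mice and the set of 4 in 7, and 0 mice held both, while susceptible mouse 4 and resistant mice 5 and 9 held neither. Libraries of the set's carriers would have allowed an unseen F-3f0846 of 0.0901% to 0.171% of counts (3 counts of the total). In the carriers of F-3f0846, the same limit for each feature of the set was 0.0768% to 0.446%. F-5250d8 and F-d0393c did coexist with the set of 4, in susceptible mouse 2 and resistant mice 1, 2 and 8. Of 45 pairs of the 10 features named here by rule, 7 shared no mouse: F-3f0846 with each of the set of 4, and F-165b40 with F-5d432e, F-0d3510 and F-c94d70. All 7 stood at a dissimilarity of 1, as does every pair that shares no mouse. Their ranks, between 2281 and 2291 of the 2346 pairs of features found in at least 5 mice, are therefore ties. All pairs ranked after 2291 also shared no mouse, and none of them was a pair of members. Lack of a shared mouse was thus not particular to this genus, and its share over all pairs was not counted. Features of the set of 4 occur in largely the same mice, so the 7 pairs are not separate observations.

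Between them the sets accounted for 27.8% to 96.3% of a mouse's genus counts. In 11 of 18 mice, 1 of the 2 sets held at least 70% of the genus. Mice with the set of 4 alone were 2 susceptible and 1 resistant, mice with both sets 1 and 3, and mice with the set of 3 alone 3 and 8. The genus as a whole had a median of 16.7% of counts in the 11 mice with the set of 3 alone, 35% in the 4 with both and 27.5% in the 3 with the set of 4 alone. The ranges were 2.01% to 42.1%, 13% to 62.3% and 20.6% to 57.8%, so they overlapped.

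**Figure D4:**
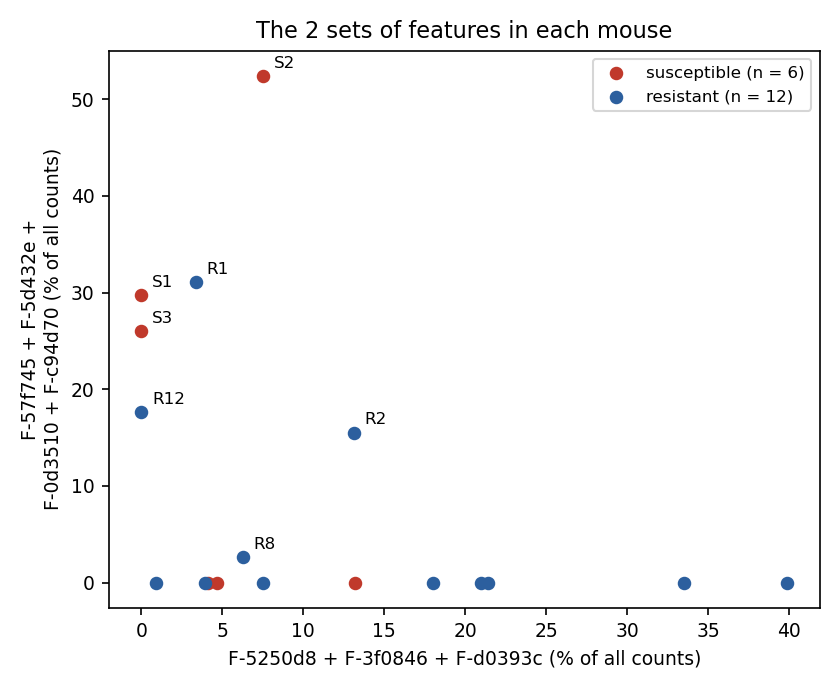
Each point is 1 mouse (red susceptible, blue resistant). The axes give the summed percentage of counts of the set of 3 (horizontal) and the set of 4 (vertical), and the labelled mice carry the set of 4. Most mice lie on or near an axis; resistant mouse 2, at 13.1% and 15.5%, holds both at similar levels.

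Other members were carried by part of the mice at lower levels. F-165b40 was found in 5 mice, at 1.47%, 6.25% and 2.87% of counts in susceptible mice 4, 5 and 6 and at 5.51% and 3.03% in resistant mice 4 and 8. It was the largest feature in susceptible mouse 5. All 5 carriers also had F-d0393c.

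F-928870 and F-7f9d17 share the entry Clostridiales_bacterium. F-928870 was found in 10 mice at up to 2.07% of counts, and F-7f9d17 in 8. Both were found together in 7 mice, where F-928870 stood at 0.923 to 2.86 times F-7f9d17. Susceptible mouse 1 differed: it had 199 counts of F-7f9d17, 8.24% of its total, and none of F-928870, while the other carriers of F-7f9d17 held 0.394% to 1.13%.

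F-5c74d4 and F-74ac9b were another pair in step. Both were found in susceptible mouse 5 and resistant mice 2, 9, 10 and 11, with 64 and 42 counts in susceptible mouse 5, and F-74ac9b stood at 0.611 to 0.824 times F-5c74d4. Resistant mouse 6 had F-5c74d4 alone. F-102df1 and F-f77854 were found together in 3 mice, susceptible mouse 1 and resistant mice 1 and 2, whose sample titles bear the numbers 33, 34 and 35, and F-f77854 was also found in resistant mouse 3, number 36. These 4 features were singled out after their values were seen.

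Of the 17 members found in 1 mouse, 11 had fewer than 5 counts and 6 had at least 10. F-82e9d6, F-2a56e3 and F-886180 were all in susceptible mouse 1, at 6.29%, 5.42% and 2.94% of its counts, and F-d5ec91 and F-74b5c9 in susceptible mouse 2 at 1.55% and 0.518%. F-333c80, the last of the 6, was in resistant mouse 6 at 0.515%. Susceptible mouse 1 had the lowest dominance of all mice, 0.113, with 10 members and no feature above 14.3% of the genus.

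Between the groups, the set of 4 and the set of 3 had means in opposite directions, and no member passed the test. Mean percentages of F-57f745, F-5d432e, F-0d3510 and F-c94d70 were 4.45%, 4.78%, 5.03% and 3.77% in susceptible mice and 2.10%, 1.37%, 1.06% and 1.03% in resistant mice. Those of F-5250d8, F-3f0846 and F-d0393c were 1.82%, 1.15% and 1.94% in susceptible and 5.77%, 4.63% and 3.66% in resistant mice. The standard deviation exceeded the mean for each of these except F-5250d8 in resistant mice and F-d0393c in both groups, and each feature was absent from part of each group. Features that occur in the same mice are not separate observations of the groups.

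Log2 fold changes (susceptible over resistant) were 2.48 ± 1.78 (SE) for F-0d3510, 2.01 ± 1.73 for F-5d432e and 1.98 ± 1.77 for F-c94d70, and -2.11 ± 1.88 for F-3f0846, -1.78 ± 1.47 for F-5250d8 and -1.21 ± 1.47 for F-d0393c. All had an adjusted p of 0.964 in edgeR's quasi-likelihood test over 83 features, and the signs of these 6 were the same with DESeq2 size factors and with library totals alone. Of the 31 members 13 passed the filter of 10 counts and 4 mice, and edgeR called 0 of them (0 at an unadjusted p under 0.05), DESeq2 0 (0) and limma on centred log-ratios 0 (0), against 0% of all features called by edgeR. Their median log2 fold change was 1.20, against -0.24 for all 83 features, with 8 above 0 and 5 below. That median depended on the setting: it was 0.51 with the title number as a covariate and 0.32 with limma on centred log-ratios (7 above and 6 below in each), and -0.17 over the 3 members found in at least 9 mice, all 3 below 0. Without a filter on low counts edgeR called 6 of the 31 members (19.4%), against 15.3% of all 419 features. Each of these 6 was found in 1 mouse only, either susceptible mouse 1 or susceptible mouse 2. Presence tested over 84 features by Fisher's exact test called 0 of 13 members (0 at an unadjusted p under 0.05), against 0% of all features. F-5250d8, present in 3 susceptible and 10 resistant mice, had an exact p of 0.268 and an adjusted p of 1.

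Reads of the genus were spread over slightly more features in susceptible mice, a difference that did not outlast adjustment. The chance that 2 genus reads of a mouse were the same feature was 0.206 ± 0.0488 (SD) on average in the 6 susceptible mice. It was 0.272 ± 0.0680 (SD) in the 12 resistant mice. Its inverse, an effective number of features, ran from 4.13 to 8.82 with a median of 4.37 in susceptible mice and from 2.60 to 5.6 with a median of 3.58 in resistant mice. Dominance differed by -0.0665, and the 95% interval ended just short of 0, at -0.133 and -4.63e-05. The two-sided exact permutation test gave p = 0.0499, which became 0.20 when adjusted over the 4 tests of the labels. It was -0.0481 without susceptible mouse 1 (exact p = 0.146) and -0.0456 without the 2 libraries under 1500 counts (exact p = 0.104), and those 2 resistant mice had the highest dominance of all, 0.385 and 0.370. Rarefied to 54 genus counts, susceptible mice had 6.37 ± 1.85 (SD) members and resistant mice 5.10 ± 1.64 (SD). Their means lay 1.27 apart, with a 95% interval of -0.527 to 3.09 (exact permutation p = 0.156, adjusted p = 0.244).

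The make-up of the genus, taken as shares within it, was not separated by the label either. In a permutational multivariate analysis of variance on Bray-Curtis dissimilarity of the shares, the label accounted for 8.74% of the variation (pseudo-F = 1.53, exact permutation p = 0.183, adjusted p = 0.244). Mice averaged a dissimilarity of 0.738 between susceptible mice, 0.604 between resistant mice and 0.683 across the groups. The most alike mice were resistant mice 7 and 11, at 0.0468. Some close pairs crossed the labels: resistant mouse 4 and susceptible mouse 6 at 0.0798, resistant mouse 1 and susceptible mouse 2 at 0.110, and resistant mouse 12 and susceptible mouse 3 at 0.140.

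The number in the sample title, whose meaning the labels do not give, was examined because earlier results of these data showed feature richness to follow it. The genus as a percentage of counts had a Pearson r of -0.527 with that number over 18 mice, with a permutation p of 0.0242 that became 0.0727 when adjusted over 3 measures. By rank, rho was -0.552 (Spearman, permutation p = 0.0191, adjusted 0.0572). With susceptible mouse 1 and resistant mouse 12 left out, the mice with the most extreme numbers, r was -0.437 (permutation p = 0.0903), and within the 12 resistant mice it was -0.361 (permutation p = 0.245). Without the 2 libraries under 1500 counts r was -0.603 (permutation test, adjusted p = 0.0220). For dominance, r was 0.152 (permutation p = 0.548, adjusted 0.548) while rho was 0.212 (permutation p = 0.399, adjusted 0.467). For the rarefied number of members, r was -0.356 (permutation p = 0.147, adjusted 0.221) while rho was -0.183 (permutation p = 0.467, adjusted 0.467). Without the same 2 mice these r values were 0.0623 (permutation p = 0.820) and -0.232 (permutation p = 0.388), and within the resistant mice -0.0552 (permutation p = 0.863) and -0.123 (permutation p = 0.696). The 2 small libraries mattered for both: without them r was 0.480 for dominance (permutation test, adjusted p = 0.0606) and -0.609 for the rarefied number (permutation test, adjusted p = 0.0220). The number accounted for 9.16% of the variation in shares (permutation p = 0.179). Carriers of the set of 4 had the numbers 33, 34, 35, 38, 42, 44 and 50, and those of F-3f0846 had 36, 37, 40, 41, 46, 47, 48 and 49.

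Compared with the other large lineages of the same stools, the genus was concentrated in fewer features within a mouse. Its dominance averaged 0.25 ± 0.0688 (SD, n = 18), against 0.135 ± 0.117 (SD, n = 18) among Muribaculaceae, with the genus higher in 14 of 18 mice (difference 0.115 ± 0.147 SD, paired permutation p = 0.00564, adjusted p = 0.0113). Among the 101 features of Lachnospiraceae outside the genus it averaged 0.184 ± 0.126 (SD, n = 18), with the genus higher in 15 of 18 mice (difference 0.0657 ± 0.0989 SD, paired permutation p = 0.0118, adjusted p = 0.0118). The genus had 31 features, Muribaculaceae 163 and the rest of the family 101, and the part of that number in the difference was not tested. Between mice, 14 of 153 pairs (9.15%) shared no member of the genus, against 0 pairs for Muribaculaceae and 0 for the other Lachnospiraceae. A pair of mice had a median of 2 members of the genus in common, 3 features of the other Lachnospiraceae and 7 of Muribaculaceae. Mean dissimilarity of shares between mice was 0.654 for the genus, 0.643 for the other Lachnospiraceae and 0.635 for Muribaculaceae, but its spread differed. In the genus 45 pairs of mice lay at 0.9 or above and 21 under 0.3, against 10 and 7 pairs in the other Lachnospiraceae and 2 and 1 in Muribaculaceae. These values were not tested against each other, since pairs of mice are not independent. They also set 1 genus against a whole family and against the rest of Lachnospiraceae, which spans 14 other genus-level taxa. The part of that breadth, and of the number of features, in these values was not tested.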

How the data were processed

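Per the labels' protocols, DNA from stool pellets was extracted, the V1 to V3 stretch of the 16S rRNA gene was amplified with a high-fidelity enzyme, and the pooled amplicons were read in pairs on a MiSeq. The authors deposited raw counts, whole numbers for each feature in each mouse, and a second deposited table gives the authors' taxonomic names. Read trimming, denoising, classifier and database are not given in the sources used here. Choices there can split or drop rare features. The smallest positive count was 1 in the table and 2 among members.

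Groups came from the labels; mice were numbered within groups in accession order, and no cage, litter, sex or batch was labelled. No 2 libraries with the same label looked like 1 library deposited again (chi-square test of counts, 0 of 81 pairs above p = 0.05). That test takes reads as independent and cannot show that libraries came from separate mice, which rests on the labels. The members and lists were chosen with earlier results of these data known.

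Counts were tested over all features, or genera (lowest named rank where none), with 10 or more counts in total that were found in at least 4 mice, using edgeR 4.0.16 (quasi-likelihood, TMM), limma 3.58.1 and DESeq2 1.42.0 in R 4.3.3, with Benjamini-Hochberg adjustment at 0.05. Standard errors were derived from the fold change and F. Single values were compared by exact permutation over all 18564 assignments of the labels (smallest possible p = 5.39e-05), with intervals from inverting the test. Correlations, paired comparisons and the regression of shares on the title number used 100000 permutations. Dominance is the unbiased Simpson estimate; all 18 mice had the 20 genus counts required. Python 3.11.15, numpy 2.4.6, scipy 1.17.1 and pandas 2.3.3 were used. The scripts were tested on simulated data.

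Features were named by rule: the largest of the genus in any mouse, found in 9 or more mice, a mean of 1% or more of counts, or among the 3 lowest edgeR p in each direction; 10 met it. The others named, and the make-up of both sets, were chosen after their values were seen. Alternatives were other scalings, tests, filters, pseudocounts, distances and diversity measures, the title number as a covariate, leaving out the 2 libraries under 1500 counts, and leaving out each mouse in turn.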

Additional observations from a re-analysis of the deposited data

Results flagged for a closer look

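Susceptible mouse 1 stood apart from the other 5 susceptible mice in F-7f9d17, with 8.24% of its counts. The gap to the next mouse was 0.907 of the range of the group, above the 95% critical value of Dixon's test for 6 values. Of the 13 measures checked in this way in the susceptible mice, this was the 1 that exceeded the value. Chance alone gives about 1 in 20 for each measure checked, so 1 among 13 carries little weight. Dixon's test takes values as normally distributed, while F-7f9d17 was found in only 3 of the 6 susceptible mice, so the result is a flag only. Susceptible mouse 1 also held F-82e9d6, F-2a56e3 and F-886180, found in no other mouse.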

How the results depend on the processing

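Over 13 results, 36 of 47 alternatives other than leaving out 1 mouse changed neither the direction nor the side of the threshold; the other 11 follow. The lower dominance in susceptible mice lost its unadjusted call with the share of the largest feature (-0.0698, exact p = 0.122), the Shannon index with its sign turned (-0.277, exact p = 0.0660) and without the 2 libraries under 1500 counts (-0.0456). Leaving out 1 mouse at a time gave -0.0751 to -0.0481 and kept the call only without resistant mouse 1, 2, 8 or 12 or susceptible mouse 6. The log2 fold change of the genus was -0.13 with DESeq2 size factors, -0.13 in DESeq2 and -0.01 without the 2 small libraries, and ran from -0.20 to 1.62 with single mice left out, negative without susceptible mouse 2 or resistant mouse 5, 7 or 9. The title number accounted for 11.6% of the variation in presence of members by Jaccard distance (permutation p = 0.0491). Its r was -0.603 with the genus percentage and -0.609 with the rarefied number of members without the 2 small libraries, and with dominance it was 0.480 without them and -0.0552 within resistant mice. Without a filter on low counts edgeR called 6 members. With single mice left out, the difference in log2 percent ran from 0.19 to 0.82, that in rarefied members from 0.593 to 1.54, the percentage explained by the label from 6.15 to 13.3, and edgeR called 0 members each time. Requiring 50 genus counts kept all 18 mice. The cause of these changes was not tested. Depth limits the rarest members: with 673 counts in resistant mouse 3, an unseen feature could hold 0.446% of its counts.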

Other observations

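Some members had levels across mice close to those of features outside the genus. Only features found in at least 5 mice were compared, so closer neighbours among rarer features would not be seen. F-5250d8 and F-3f0846 were closest to F-a98c4f of Lachnospiraceae_UCG-001, a feature found in all 18 mice, with Bray-Curtis dissimilarities across mice of 0.301 and 0.481, and F-d0393c to F-f79da2 of the same genus at 0.312. The set of 4 had no such neighbour: its closest outside features stood at 0.617 to 0.728, while its own members lay at 0.212 or less from one another. F-928870 was closer to the Muribaculaceae feature F-9490ca, at 0.321, than to any member, the nearest being F-7f9d17 at 0.617. The same held for F-7f9d17, at 0.550 from F-b3e8c8 of the [Eubacterium]_xylanophilum_group against 0.617 from F-928870. It also held for F-165b40, at 0.466 from F-e9fe4d of Bacteroides against 0.615 from F-d0393c. These are descriptions over 18 mice that share libraries and totals, and carry no test.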
